A study of Mus musculus with 2 samples.

Results

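Osteoclast-like phagocytes are here the cells of a mouse tumour that carry transcripts of the bone-resorbing cell, cathepsin K (Ctsk) together with tartrate-resistant acid phosphatase (Acp5), gelatinase B (Mmp9) or the osteoclast subunit of the proton pump (Atp6v0d2). A cell was a member if it held at least 500 UMIs (unique molecular identifiers, each standing for 1 captured transcript), at most 10% mitochondrial UMIs, at least 2 Ctsk UMIs and at least 5 UMIs of Acp5, Mmp9 and Atp6v0d2 in sum. It also had to hold no UMI of the T cell genes Cd3d, Cd3e and Cd3g, and at most 1 UMI of the stromal genes Sparc and Sox9. This choice used measured levels, so the levels of those genes in the members are given as a description. The criteria picked 147 of 67031 filtered cells, 33 in the BiDT library and 114 in the Ctrl library.

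MC38 is a mouse colon carcinoma line, and the cells came from tumours of that line taken on day 19 after inoculation. The BiDT group was treated with an agent that the labels call BiDT and do not define, while the title of the series speaks of an anti-TIM3-IFN fusion protein. The Ctrl group is the labelled control, and no other genotype, strain or age is given in the sources used here. In both groups the tumours were digested enzymatically, live CD45+ cells (CD45 marks leukocytes) were sorted, and the material of 5 biological replicates went into 1 library of batch 1. With 1 library a group no difference between BiDT and Ctrl has a test, and the 95% intervals cover counting error only.

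Osteoclasts are giant cells that form from precursors of the monocyte line when the ligand RANKL binds the receptor RANK (Tnfrsf11a) while CSF1 keeps the precursors alive. Signals from RANK and from adaptor proteins with ITAM motifs induce the master transcription factor NFATc1, precursors fuse, and the mature cell pumps acid and secretes cathepsin K onto bone. Interferons are known as inhibitors of osteoclast formation in culture and in mice. Cells with osteoclast transcripts also occur outside bone, in tumours and in granulomas.

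The BiDT library held 34996 barcodes with 130313537 UMIs and the Ctrl library 34310 barcodes with 211047063 UMIs, and filtered cells had a median of 2670 UMIs in BiDT and 4267.5 in Ctrl. Members were deeper than that, with a median of 6461 UMIs in BiDT (1209 to 38920) and 13506 in Ctrl (1389 to 57467), and the gap in depth between the libraries is present among them too. A total of 713 barcodes occurred in both libraries, 3 of them as members in Ctrl and none as a member in BiDT. The BiDT members together held 307161 UMIs and the Ctrl members 1757574, and the largest BiDT member alone held 38920. Levels below are UMIs summed over the cells of a class and divided by the class total on the usual common scale (CPM), or, where a single cell is meant, that cell's own CPM.

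The members fell into cells very rich in Ctsk and cells that passed the criteria with little of it. Ctsk took at least 0.1% of the UMIs of 24 BiDT and 86 Ctrl members, called Ctsk-rich below, where its median share was 1.23% in BiDT and 1.39% in Ctrl. The remaining 9 BiDT and 28 Ctrl members, called Ctsk-poor, had a median Ctsk share of 0.0205% in BiDT and 0.0209% in Ctrl, at median depths of 13121 and 14411 UMIs. Macrophage transcripts went the other way. Lyz2 (lysozyme) with C1qa, C1qb and C1qc (complement C1q) took a median of 0.0267% of UMIs in Ctsk-rich BiDT cells and 0.0316% in Ctsk-rich Ctrl cells, against 1.54% and 0.762% in the Ctsk-poor cells of BiDT and Ctrl. The Ctsk-poor cells held 43.7% of all member UMIs in BiDT and 27.5% in Ctrl, so sums over all members carry more of their transcripts in BiDT. This boundary was drawn after the values had been seen and marks a range, not a type: 1 BiDT and 11 Ctrl members lie within 2-fold of it. In BiDT the Ctsk share jumped across it, with the highest Ctsk-poor cell at 0.0610% and the lowest Ctsk-rich cell at 0.367%, whereas in Ctrl the neighbours stood at 0.0993% and 0.1095%. A further group, the Ctsk-rich cells with less than 0.1% of Lyz2 and C1q UMIs, has 19 BiDT and 74 Ctrl cells and is called macrophage-low.

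**Figure D1:**
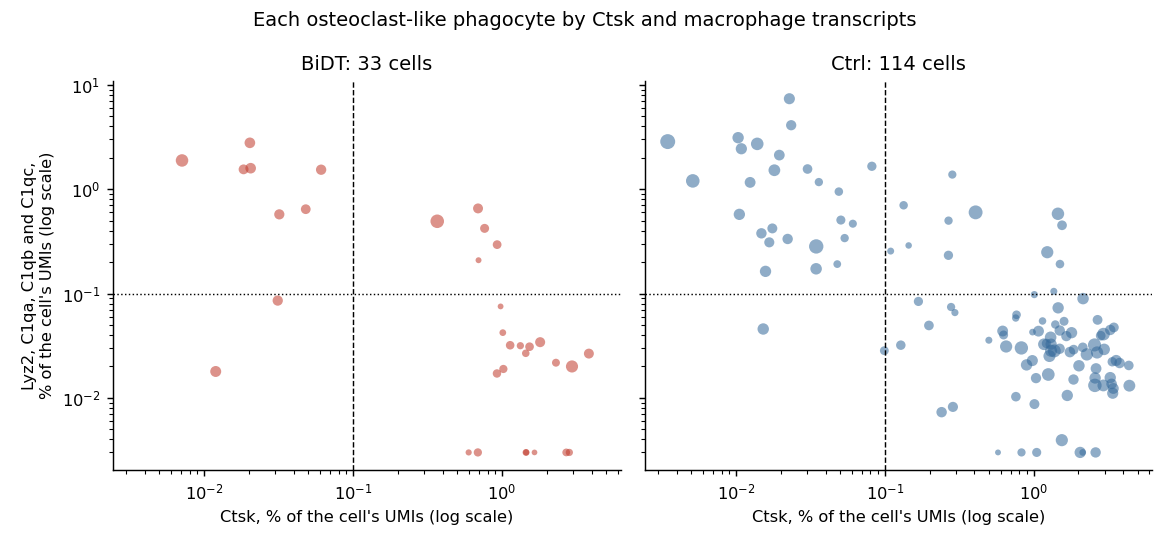
Each point is 1 osteoclast-like phagocyte, BiDT left (33 cells) and Ctrl right (114 cells), by the share of its UMIs from Ctsk (x axis, %, log scale) and from Lyz2, C1qa, C1qb and C1qc (y axis, %, log scale, cells with none drawn on the lowest line), with larger points for deeper cells. Dashed and dotted lines mark 0.1%, and most cells lie low in macrophage transcripts and right of the dashed line, while the Ctsk-poor cells lie mostly above the dotted line.

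The markers named for the label were checked first in the Ctsk-rich and then in the Ctsk-poor members. In single Ctsk-rich cells Ctsk ranged between 3674 and 38359 CPM around a median of 12316 in BiDT, and between 1095 and 43945 CPM around 13872 in Ctrl. Mmp9 was present in 24 of 24 Ctsk-rich BiDT cells and 82 of 86 Ctsk-rich Ctrl cells, and Acp5 in 22 of 24 and 86 of 86. Ckb, the brain-type creatine kinase that supplies energy in resorbing osteoclasts and that the criteria did not use, had a UMI in 20 of 24 Ctsk-rich BiDT cells and 73 of 86 Ctsk-rich Ctrl cells. Among the Ctsk-poor cells, Ckb was found in 1 of 9 in BiDT and 11 of 28 in Ctrl, and Mmp9 in 0 of 9 and 6 of 28. Ocstamp, a membrane protein needed for osteoclast fusion, was present in 14 of 24 Ctsk-rich BiDT cells and 75 of 86 Ctsk-rich Ctrl cells, but in 1 of 9 and 1 of 28 Ctsk-poor cells. Ctsk, Mmp9 and Acp5 follow in part from the criteria and from the boundary on the Ctsk share, so they are a description. Ckb and Ocstamp, which neither used, fit the label osteoclast-like in the Ctsk-rich cells. The Ctsk-poor cells met the criteria mainly through Atp6v0d2 (9 of 9 in BiDT and 23 of 28 in Ctrl) and Acp5 (6 of 9 and 19 of 28).

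Defining markers of a mature osteoclast were not all there. Calcr, the calcitonin receptor of the bone osteoclast, had 0 UMIs over the BiDT members and 2 over the Ctrl members. Siglec15, a sialic acid receptor that promotes osteoclast formation, had 2 and 21 UMIs, and Tm4sf19, a tetraspanin-like protein of multinucleated osteoclasts, 1 and 15. Markers of other lineages were low, which the limits on Cd3, Sparc and Sox9 UMIs fix in part for T cell and fibroblast genes. The 14 T and NK cell genes summed to a per-cell median of 179 CPM in BiDT members and 0 CPM in Ctrl members. The T cells of the same libraries had 7124 and 5715 CPM. At least 1 such UMI was found in 22 of 33 BiDT and 48 of 114 Ctrl members, against 98.9% and 97.4% of T cells. Any of 16 fibroblast genes was found in 9 of 33 BiDT and 29 of 114 Ctrl members, and 9 genes of epithelial or tumour cells in 3 of 33 and 32 of 114. Ptprc, the gene of the CD45 protein used in the sort, had a UMI in 19 of 33 BiDT members (57.6%) and 98 of 114 Ctrl members (86.0%), at median depths of 6461 and 13506 UMIs. In T cells of 3272 and 3477.5 median UMIs the shares were 87.6% in BiDT and 90.2% in Ctrl. Doublets were scored with Scrublet, whose automatic thresholds marked 0 cells in either library and had thus not worked. No member scored 0.15 or more, a value that 2808 BiDT and 2056 Ctrl cells reached.

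Osteoclast-like phagocytes made up a smaller share of the BiDT library. They were 33 of 34423 filtered cells in BiDT, 0.0959% (exact binomial 95% interval 0.066 to 0.135%), and 114 of 32608 in Ctrl, 0.350% (0.289 to 0.420%). The share was 3.65-fold lower in BiDT (log2 ratio -1.87, interval -2.47 to -1.30). Ctsk-rich cells alone were 0.0697% in BiDT and 0.264% in Ctrl (log2 ratio -1.92), and Ctsk-poor cells 0.0262% and 0.0859% (log2 ratio -1.72). Depth differs between the libraries, and UMI thresholds admit deeper cells more easily. With every cell reduced at random to 2000 UMIs, and 11651 BiDT and 4816 Ctrl cells dropped as too shallow, 25 BiDT cells (0.110%) and 90 Ctrl cells (0.324%) met the criteria, a log2 ratio of -1.56. Phagocytes were defined by at least 2 UMIs over 6 myeloid genes, which members did not have to meet. Set beside the number of phagocytes, members came to 0.259% in BiDT and 0.596% in Ctrl, a log2 ratio of -1.20 (-1.81 to -0.63). These values are ratios of counts and not shares of the phagocytes. The share of the other macrophages was not uniform: macrophages rich in C1q without Arg1 (C1q macrophages) took 4.15% in BiDT and 2.62% in Ctrl, and macrophages rich in Arg1 (Arg1 macrophages) 18.9% and 36.4%. All shares are of sorted cells, so a difference in one class shifts the others.

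**Figure D2:**
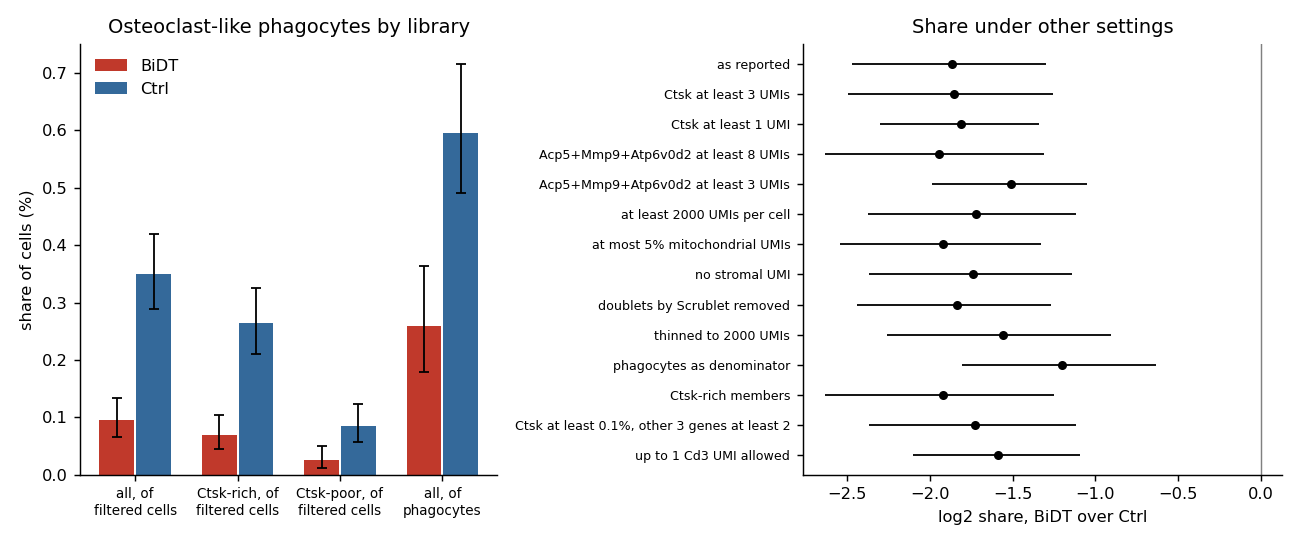
Left, bars give the share (%) of osteoclast-like phagocytes and of their Ctsk-rich and Ctsk-poor cells in BiDT (red) and Ctrl (blue), with exact 95% binomial intervals that cover counting error only. The last bars set all members beside the number of phagocytes, whose definition members did not have to meet. Right, the log2 ratio of the shares, BiDT over Ctrl, with its 95% interval as reported and under 13 other settings, lies between -1.95 and -1.20.

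Cells just outside the thresholds were not few beside the members. With the other criteria met, 16 BiDT and 49 Ctrl cells had 1 Ctsk UMI and were outside, and 5 and 22 members had 2 or 3. The sum of Acp5, Mmp9 and Atp6v0d2 was 3 or 4 in 21 BiDT and 32 Ctrl cells outside, and 5 or 6 in 6 and 15 members. The bar on Cd3 transcripts kept out 17 BiDT and 25 Ctrl cells, of which 11 and 17 were Ctsk-rich and 13 and 17 held a single Cd3 UMI. When 1 Cd3 UMI was allowed, 46 BiDT and 131 Ctrl cells met the criteria, a log2 ratio of -1.59. With a sum of at least 3 UMIs of Acp5, Mmp9 and Atp6v0d2 it was 54 BiDT and 146 Ctrl cells, a log2 ratio of -1.51.

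Compared with C1q macrophages of the same library, the members had higher levels of osteoclast genes that had not chosen them, of proton pump genes and of mitochondrial genes, and lower levels of many macrophage genes. A gene counted as higher or lower here when it differed at least 2-fold in the same direction in both libraries, and of 8099 genes with at least 50 UMIs over both classes in each library 3.83% were higher and 7.17% lower. Of 24 osteoclast genes that the criteria did not use, 18 had enough UMIs, and 13 of them were higher in the members and 0 lower. Their median log2 ratio was 1.87 in BiDT and 2.57 in Ctrl, beside -0.11 and -0.05 over all genes. In the Ctsk-rich cells 16 of 18 were higher and 0 lower, where 5.69% of all genes were higher and 10.0% lower. In the macrophage-low cells 17 of 18 were higher and 0 lower, where 6.99% of all genes were higher and 9.57% lower.

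Most signalling genes of osteoclast formation did not differ by this measure: of 24 genes of RANK, CSF1 and ITAM signalling 2, Tnfrsf11a and Nfatc1, were higher and 1, Map3k14, was lower, with medians of -0.18 in BiDT and -0.17 in Ctrl. Nfatc1, the master transcription factor of osteoclasts, stood at 290 CPM in BiDT members and 658 CPM in Ctrl members, against 39.0 and 54.0 CPM in C1q macrophages. Tnfrsf11a, the receptor RANK, had 87.9 CPM in BiDT and 85.9 CPM in Ctrl members, against 43.7 and 20.1 CPM. Jdp2, an AP-1 family factor required for osteoclast formation in mice, had 443 and 652 CPM, against 72.5 and 64.4 CPM. Oscar, a collagen-binding receptor that pairs with the adaptor Fcer1g, was nearly absent from the C1q macrophages. It had a UMI in 12 of 33 BiDT members (36.4%) and 55 of 114 Ctrl members (48.2%), against 2 of 1427 and 0 of 853 C1q macrophages, the last allowing a share of cells with a UMI of up to 0.352% by a floor of 3 cells (exact upper limit 0.4315%). In T cells, which should lack it, Oscar was found in 0.0769% of BiDT and 0.0563% of Ctrl cells.

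Genes of fusion and attachment followed. Ocstamp stood at 137 CPM in BiDT members and 268 CPM in Ctrl members, against 5.99 and 23.5 CPM in C1q macrophages. Dcstamp, the other fusion protein of this kind, separated the classes less in Ctrl, with 117 and 210 CPM in members against 26.5 and 179 CPM. The integrin subunits of the osteoclast's adhesion ring were both higher: Itgav had 202 and 352 CPM in members against 78.3 and 66.3 CPM. Itgb3, the integrin beta 3 chain, had 61.9 CPM in BiDT and 226 CPM in Ctrl members, against 13.9 and 4.36 CPM. T cells reached 70.0 and 60.4 CPM of Itgb3, so that the BiDT members did not exceed the T cells of their library. Of 11 listed fusion genes, Ocstamp alone was higher and Cdh1 alone lower.

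Among transporters and vesicle proteins of resorption Snx10, a sorting nexin whose loss causes osteopetrosis, was higher, at 394 CPM in BiDT members and 876 CPM in Ctrl members, against 117 and 108 CPM in C1q macrophages. Slc9b2 and Rufy4 had fewer than 50 UMIs over both classes in BiDT and were not counted. Slc9b2, a sodium-proton exchanger of osteoclasts, had 156 CPM in BiDT members and 443 CPM in Ctrl members, against 0.193 and 2.49 CPM in C1q macrophages. Rufy4, a protein of late endosomes and lysosomes, had 101 and 105 CPM against 0.387 and 0.831 CPM. Of 19 genes of the vacuolar proton pump and its chloride channel, 9 were higher and 0 lower, with medians of 0.84 in BiDT and 1.42 in Ctrl. In Ctsk-rich cells 14 were higher. The subunit Atp6v1b2 had 1032 CPM in BiDT members and 1552 CPM in Ctrl members against 318 and 187 CPM. Atp6v0a1, a subunit of the pump that osteoclasts largely replace by Tcirg1, was the one pump gene lower in Ctsk-rich cells, at 23.1 and 18.8 CPM against 61.7 and 61.9 CPM.

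**Figure D3:**
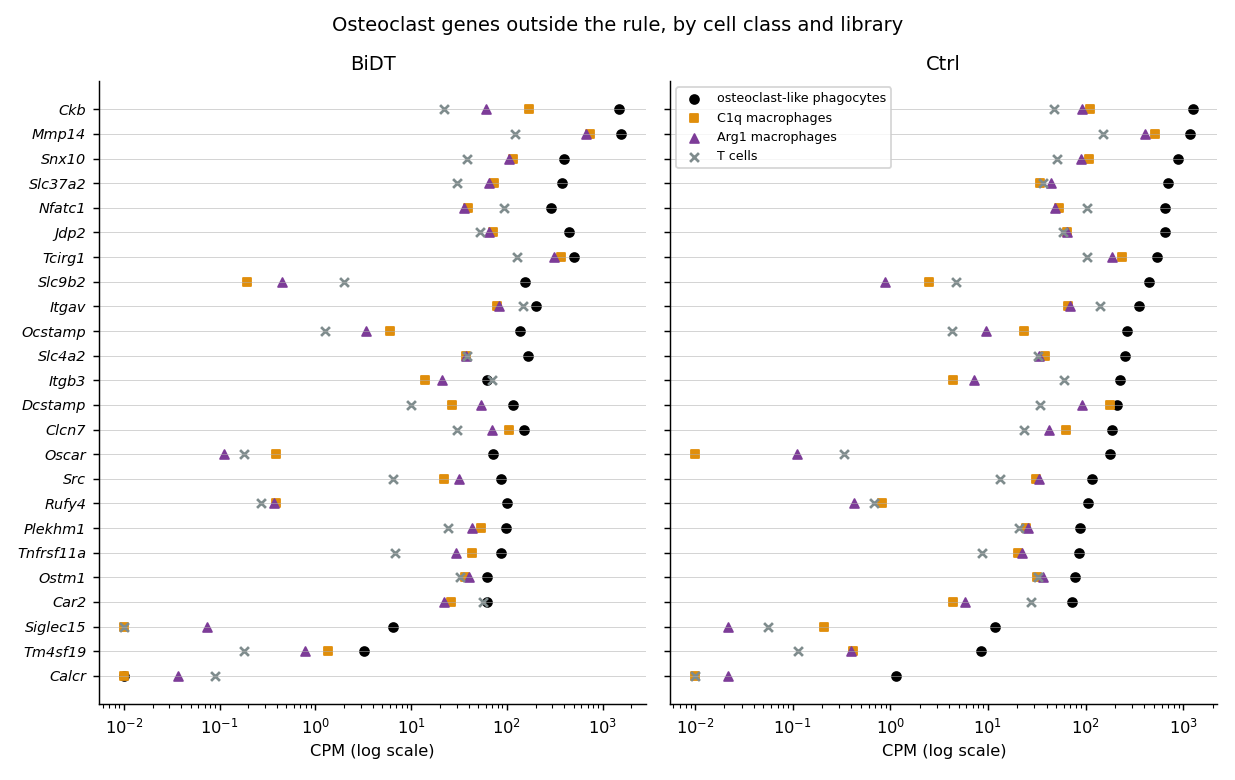
Levels (CPM, log scale) of the 24 osteoclast genes outside the criteria in osteoclast-like phagocytes (black circles), C1q macrophages (orange squares), Arg1 macrophages (purple triangles) and T cells (grey crosses), BiDT left and Ctrl right, with classes without a UMI drawn at the left edge. The black circles are the rightmost points for most genes in both libraries, and Itgb3 in BiDT, at 61.9 CPM against 70.0 CPM in T cells, is an exception.

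Mitochondrial genes were higher as well, and macrophage genes lower. Of 23 genes of oxidative phosphorylation and mitochondria, 9 were higher than in C1q macrophages and 0 lower (13 and 0 in Ctsk-rich cells). They summed to a per-cell median of 6810 CPM in BiDT members and 13188 CPM in Ctrl members, against 3950 and 5848 CPM. Ppargc1b, a coactivator of mitochondrial biogenesis in osteoclasts, was among the 9. Of 30 lysosomal genes 10 were higher, among them Cd63 and Npc1, and Ctsc was lower. In Ctsk-rich cells 10 were higher and 7 lower (Ctsc, Ctsh, Ctss, Scarb2, Lamp1, Lamp2 and Lipa), with medians of -0.15 in BiDT and 0.24 in Ctrl. Of 21 macrophage genes only Cd68 was higher, at 739 CPM in BiDT and 806 CPM in Ctrl members against 258 and 243 CPM, and 11 were lower. The C1q genes among these 11 chose the C1q macrophages and are no finding. Mrc1, Mertk, Maf and Selenop, genes of resident and scavenging macrophages, were not used in that choice. Of 9 listed repressors of osteoclast formation 0 were higher and 4 were lower: the transcription factors Irf8 and Bcl6 and the inhibitory receptors Lilrb4a and Pilra. Irf8 had 156 and 106 CPM in members against 317 and 373 CPM.

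Outside all lists, the gene that stood out most was Mt3, a metallothionein best known from brain. It had 274 CPM in BiDT members and 419 CPM in Ctrl members, against 0 and 1.25 CPM in C1q macrophages, and 0.223 and 0.495 CPM in Arg1 macrophages. It was found in 19 of 24 Ctsk-rich BiDT cells and 57 of 86 Ctsk-rich Ctrl cells, and in 0 of 9 and 0 of 28 Ctsk-poor cells. Bdh2, an enzyme linked to siderophore and ketone metabolism, followed with 176 and 303 CPM in members against 3.67 and 2.29 CPM. Tfrc, the transferrin receptor that imports iron, had 212 and 318 CPM against 21.8 and 18.9 CPM. The other highest genes were Adcy3, Myo1d, Fam102a, Prnp, Arsb, Tsc22d1, Ocstamp, Kbtbd11, Oaf, Sdc1, Nudt22 and Arg1, the last fixed in part by the limit of 1 Arg1 UMI in C1q macrophages. Arsb, a lysosomal sulfatase that degrades matrix glycosaminoglycans, had 514 and 745 CPM in members against 34.6 and 11.6 CPM, and 902 and 1024 CPM in the Ctsk-rich cells. The lowest genes were Lyz1, Retnla, Ccl17, Tmem176b, Fcrls, Cd209f, Cxcl10, Tlr1, Ptger4 and Gzme. Retnla, a product of alternatively activated macrophages, had 117 and 54.1 CPM in members against 4114 and 1063 CPM, and Lyz1 had 0 and 1.14 CPM against 213 and 85.8 CPM.

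Promoters of genes that chose the members and of interferon genes described below are shown. They carry letters of a general form that includes known binding sites of factors of the 2 programmes. MITF and TFE3, basic helix-loop-helix factors of osteoclasts, bind E-boxes within the form TCANNTGA, which reads the same on both strands. The form leaves the middle letters open, and they are GA in Ctsk and CA in Acp5. Whether the factors bind either match was not tested. Letters of this form stand in the 250 bases before the start of both Ctsk and Acp5, in capitals below. For Acp5 they stand in 1 of the 3 start windows that RefSeq gives. Mmp9 and Atp6v0d2 were not matched in the table used here. Of 27025 genes with such a window, 8.11% hold the motif, and of 18 matched osteoclast genes outside the criteria 1 does (Plekhm1). Sequences are from RefSeq on GRCm38.p6 and run 5′ to 3′ on the strand of the gene: Ctsk at chr3:95498960-95499209 (plus strand) and Acp5 at chr9:22130599-22130848 (minus strand).
Ctsk: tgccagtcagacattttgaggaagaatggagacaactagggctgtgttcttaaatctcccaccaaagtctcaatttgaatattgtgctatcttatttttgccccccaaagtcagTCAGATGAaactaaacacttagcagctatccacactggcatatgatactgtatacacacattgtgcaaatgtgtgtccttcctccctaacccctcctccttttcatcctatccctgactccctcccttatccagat
Acp5: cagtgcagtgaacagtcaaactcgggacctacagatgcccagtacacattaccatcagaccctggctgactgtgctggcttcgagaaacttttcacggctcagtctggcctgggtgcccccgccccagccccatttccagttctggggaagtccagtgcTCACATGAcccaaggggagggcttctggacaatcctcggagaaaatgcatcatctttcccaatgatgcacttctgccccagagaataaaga
The letters GAAANNGAAA, or TTTCNNTTTC on the other strand, make up the core of the interferon-stimulated response element that the factor ISGF3 binds. They occur before the start of 3.46% of the 27025 genes and of 17 of 34 matched genes of the type I interferon list, and matches on the Isg15 promoter overlap. Ifit3 (chr19:34583279-34583528, plus strand), Ifi208 (chr1:173673415-173673664, plus strand) and Isg15 (chr4:156200819-156201068, minus strand) are shown with the matches in capitals.
Ifit3: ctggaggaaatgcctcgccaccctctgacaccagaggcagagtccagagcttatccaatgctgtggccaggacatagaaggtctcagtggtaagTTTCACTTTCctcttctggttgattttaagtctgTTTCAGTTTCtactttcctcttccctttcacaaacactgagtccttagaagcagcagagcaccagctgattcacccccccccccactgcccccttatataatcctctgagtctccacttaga
Ifi208: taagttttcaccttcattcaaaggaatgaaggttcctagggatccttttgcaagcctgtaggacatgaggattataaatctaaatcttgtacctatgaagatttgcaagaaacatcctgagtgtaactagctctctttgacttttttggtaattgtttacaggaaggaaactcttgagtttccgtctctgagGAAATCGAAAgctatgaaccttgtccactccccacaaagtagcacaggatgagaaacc
Isg15: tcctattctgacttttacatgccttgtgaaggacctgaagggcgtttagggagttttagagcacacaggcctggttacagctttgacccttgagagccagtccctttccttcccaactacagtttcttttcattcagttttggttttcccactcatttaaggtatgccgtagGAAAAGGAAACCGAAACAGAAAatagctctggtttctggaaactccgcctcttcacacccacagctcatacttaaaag
A match is a description of the letters and was not tested as a binding site.

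The members of the BiDT and Ctrl libraries were then compared, a gene counting as higher or lower in BiDT from 1.5-fold on. Of 5597 genes with at least 50 UMIs over the members of both libraries, 15.9% were higher and 20.7% lower in BiDT, and the median log2 ratio was -0.08. In Ctsk-rich cells the shares were 15.6% and 23.1% of 4408 genes. The genes that chose the members are given first, as a description. Acp5 had a per-cell median of 1393 CPM in BiDT members and 4227 CPM in Ctrl members, and summed to 2718 and 8178 CPM. Ctsk summed to 8523 CPM in BiDT and 13097 CPM in Ctrl, Mmp9 to 5102 and 8233 CPM, and Atp6v0d2 to 524 and 852 CPM. In the Ctsk-rich cells the log2 ratios were -1.33 for Acp5, -0.27 for Ctsk, -0.33 for Mmp9 and -0.69 for Atp6v0d2. In macrophage-low cells the log2 ratio was 0.12 for Ctsk, 0.00 for Mmp9 and -0.86 for Acp5.

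Part of the osteoclast genes outside the criteria were lower in BiDT members, and 2 were higher in the Ctsk-rich ones. Of 21 with enough UMIs, 10 were at least 1.5-fold lower and 0 higher, with a median log2 ratio of -0.56. In Ctsk-rich cells 8 were lower and 2 higher (median -0.43), and in macrophage-low cells 5 were lower and 3 higher (median -0.16), where 26.1% of all genes were lower and 16.2% higher. Over all genes the median was -0.12 in Ctsk-rich and -0.12 in macrophage-low cells. With cells rich in macrophage transcripts left out, the list thus lay near all genes in its median and in both shares. In C1q macrophages the same list had 8 of 18 genes higher and 2 lower (median 0.37), beside 16.6% and 12.1% of all genes there. In Arg1 macrophages it was 7 and 4 of 20 (median 0.25), beside 17.4% and 11.6%.

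Itgb3 differed most. It was found in 9 of 33 BiDT and 55 of 114 Ctrl members and summed to 61.9 and 226 CPM, a log2 ratio of -1.87 (-2.62 to -1.21), with -1.46 in Ctsk-rich and -1.14 in macrophage-low cells. Its level overlapped widely between single cells, since the median cell had 0 CPM in both libraries. Slc9b2 had a per-cell median of 119 CPM in BiDT and 282 CPM in Ctrl members, and in Ctsk-rich cells 262 and 445 CPM, with highest cells at 1792 and 2106 CPM. The log2 ratio of its sums was -1.50 over all members, -1.19 in Ctsk-rich and -0.83 in macrophage-low cells. Nfatc1 had a per-cell median of 177 CPM in BiDT members and 534 CPM in Ctrl members. Among Ctsk-rich cells it was 389 and 707 CPM. The highest cell was a shallow BiDT cell, at 3028.5 CPM from 5 Nfatc1 UMIs of 1651 in all. The log2 ratio of Nfatc1 was -1.18 (-1.51 to -0.87), -0.89 in Ctsk-rich and -0.41 in macrophage-low cells. The same order held for Oscar (-1.31, -0.94 and -0.67), Snx10 (-1.15, -0.88 and -0.45) and Ocstamp (-0.97, -0.64 and -0.17). Dcstamp changed little across the 3 sets (-0.84, -0.79 and -0.75).

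Ckb and Mmp14, a membrane-bound matrix protease, were the listed genes at least 1.5-fold higher in Ctsk-rich BiDT cells. In macrophage-low cells Rufy4 was higher too, while over all members none of the list reached 1.5-fold higher. Ckb had a median of 1407 CPM in single Ctsk-rich BiDT cells and 1135 CPM in single Ctsk-rich Ctrl cells, and its sums differed by 0.26 on the log2 scale over all members (0.11 to 0.40), 0.62 in Ctsk-rich and 0.77 in macrophage-low cells. Mmp14 had a median of 2471 and 1319 CPM in single Ctsk-rich cells of BiDT and Ctrl, and log2 ratios of 0.43, 0.69 and 0.81. Tnfrsf11a, the RANK receptor, was near equal, with 87.9 CPM in BiDT and 85.9 CPM in Ctrl (log2 ratio 0.03, -0.62 to 0.63). Its interval does not show equality. Pump genes differed little: of 19, 0 were higher and 2 lower in BiDT members (median -0.34), with medians of -0.19 in Ctsk-rich and -0.03 in macrophage-low cells.

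**Figure D4:**
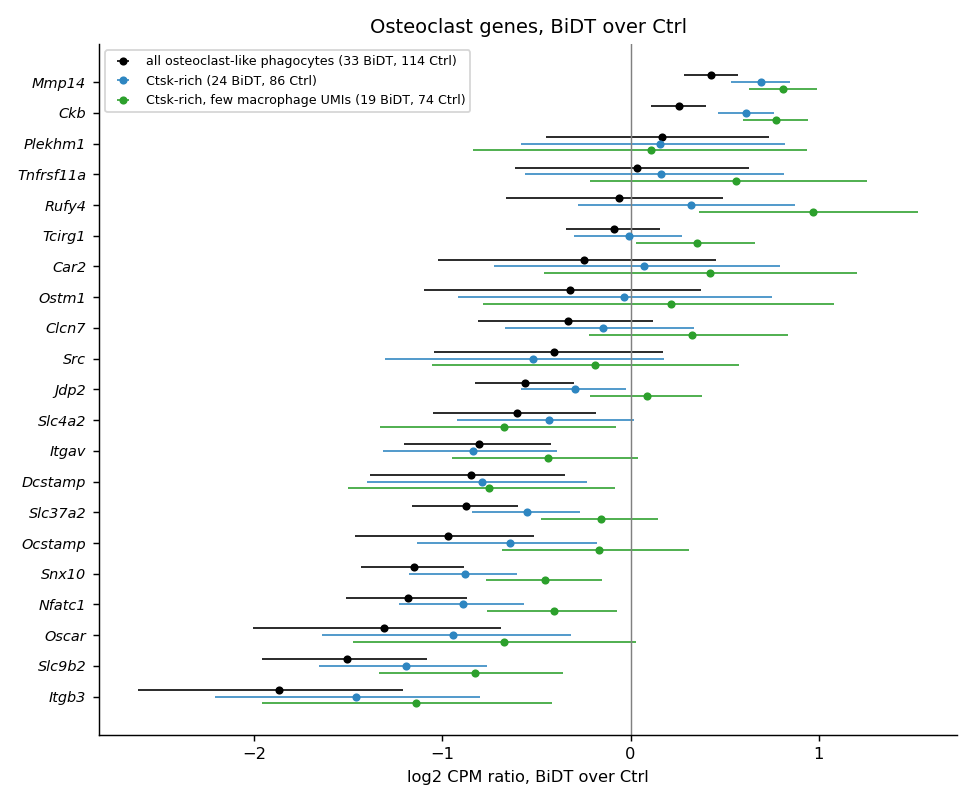
Log2 CPM ratio, BiDT over Ctrl, of the 21 osteoclast genes with at least 50 UMIs, with 95% counting intervals, for all osteoclast-like phagocytes (black), Ctsk-rich (blue) and Ctsk-rich cells with few macrophage UMIs (green). For most genes the green points lie right of the black ones, Itgb3 and Slc9b2 stay left of 0 in all 3 sets, and Ckb and Mmp14 stay right of it.

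Of the signalling genes behind osteoclast formation, 5 of 23 were higher and 4 lower in BiDT members (median 0.04), beside 15.9% and 20.7% of all genes, shares near those of the list. The higher ones were the receptor Trem2, the AP-1 genes Fos and Junb, the kinase Mapk14 and Tfe3, and the lower ones Csf1r, Oscar, Btk and Nfatc1. Csf1r, the receptor of CSF1, had a median of 261 CPM in single Ctsk-rich BiDT cells and 661 CPM in single Ctsk-rich Ctrl cells, and its sums gave a log2 ratio of -0.87 over all members and -0.40 in macrophage-low cells. Junb had 2035 CPM in BiDT and 986 CPM in Ctrl members. Among the listed repressors of osteoclast formation 4 of 8 were higher and 1 lower. Of these, Tnfaip3, an inhibitor of NF-kappaB, had a log2 ratio of 0.82, and Rbpj, the Notch effector, 0.73.

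Type I interferon genes were higher in BiDT members, as they were in the macrophages. Of 37 genes of the type I interferon list 37 were higher in BiDT members and 0 lower (median log2 ratio 2.55), and 30 of 30 in Ctsk-rich cells (2.62). The medians were 2.49 in C1q and 2.64 in Arg1 macrophages. The listed genes summed to a median of 12796 CPM per BiDT member (1916 to 41480) and 1974 CPM per Ctrl member (209 to 12250), so that the ranges overlap while the median BiDT cell lies above the highest Ctrl cell. Ifit2, an interferon-induced RNA-binding protein, had a UMI in 21 of 33 BiDT members and 6 of 114 Ctrl members, with 440 and 6.83 CPM (log2 ratio 6.01). T cells, at median depths of 3272 and 3477.5 UMIs, had an Ifit2 UMI in 30.3% of BiDT and 5.72% of Ctrl cells. Slfn4, a Schlafen protein of myeloid cells, was present in 22 of 33 and 13 of 114 members, with a log2 ratio of 5.16. Irf7, which amplifies interferon production, was present in 27 of 33 and 33 of 114 (566 and 34.1 CPM), and Ly6e, an antiviral membrane protein, had a per-cell median of 2184 and 358 CPM. Isg15, the ubiquitin-like modifier whose promoter is shown above, had medians of 745 and 30.7 CPM, and Ifit3 sums of 286 and 8.53 CPM. Of 21 genes linked to interferon gamma 13 were higher and 1, Cxcl9, was lower (median 0.77), with 16 and 1 of 19 in Ctsk-rich cells (1.19). Cd274, the checkpoint ligand PD-L1, had 234 and 92.2 CPM.

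Antigen presentation genes differed too. Of 17 genes of the MHC class I pathway 13 were higher in BiDT members and 1 lower (median 1.06), with 13 and 0 in Ctsk-rich cells. B2m, the light chain of class I, had 8312 CPM in BiDT and 3974 CPM in Ctrl, and H2-K1, a heavy chain, 6121 and 2459 CPM. MHC class II genes had a median of 0.20 in all members, with 2 of 8 higher, the proteases Ctss and Lgmn, and 0 lower. That median was -0.31 after thinning and -0.24 without the 5 members with the most UMIs, so its direction is not settled. In Ctsk-rich cells 7 of 8 were higher (median 1.06) and in macrophage-low cells, which are part of them, 8 of 8 (1.21). In BiDT a single cell held 36.5% of the class II UMIs of the Ctsk-rich cells. Among the macrophage-low BiDT cells a single cell held 39.3%. In Ctsk-poor cells 1 of 8 was higher and 6 lower (-1.40), beside a median of -0.05 over all genes there. The class II genes summed to a per-cell median of 7576 CPM in Ctsk-rich BiDT cells and 4776 CPM in Ctsk-rich Ctrl cells, and to 6741 and 3778 CPM in macrophage-low cells. By contrast, in C1q macrophages 2 of 12 were higher and 9 lower (median -1.27) and in Arg1 macrophages 1 and 9 of 12 (-1.03). H2-Aa, a class II chain, had 1555 CPM in Ctsk-rich BiDT cells and 672 CPM in Ctsk-rich Ctrl cells, but 53.9% of those BiDT UMIs came from the single cell with 38920 UMIs. The per-cell medians of H2-Aa were 348 CPM in Ctsk-rich BiDT cells and 403 CPM in Ctsk-rich Ctrl cells, the other way round from the sum of the class II genes. T cells had 402 CPM of H2-Aa in BiDT and 1294 CPM in Ctrl, so the Ctsk-rich Ctrl cells lay below the T cells of their library. The part of free RNA in these values was not tested. The cell with 38920 UMIs also held 88.1% of the Spp1, 60.1% of the Lyz2 and 46.5% of the Arg1 UMIs of the Ctsk-rich BiDT cells.

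Mitochondrial and sterol synthesis genes were lower in BiDT members. Of 23 genes of oxidative phosphorylation 0 were higher and 19 lower (median -0.98), with 18 in Ctsk-rich cells (-0.74) and 17 in macrophage-low cells (-0.80). In C1q macrophages 8 of 23 were lower (-0.48) and in Arg1 macrophages 10 (-0.56). Cox4i1, a subunit of cytochrome c oxidase, had 1524 CPM in BiDT and 2829.5 CPM in Ctrl members. The median mitochondrial share of UMIs was also lower, 1.12% in BiDT members and 2.61% in Ctrl members, and its part in these differences was not tested. Of 14 sterol synthesis genes 11 were lower and 0 higher (median -1.39), and 11 of 12 in Ctsk-rich cells (-1.98). C1q macrophages had 18 of 19 lower. Hmgcs1, an early enzyme of the pathway, was found in 8 of 33 BiDT and 58 of 114 Ctrl members. Proliferation genes were divided. Of 4 in Ctsk-poor cells, too few for a direction, 0 were lower and 1 higher in BiDT. Of 15 in all members 6 were lower and 1 higher, and of 11 in Ctsk-rich cells 9 and 0. Their sum had a per-cell median of 538 CPM in Ctsk-rich BiDT cells and 564 CPM in Ctsk-rich Ctrl cells, with highest cells at 2088 and 8748 CPM, so the medians lie close and the highest cells are in Ctrl. Top2a, a topoisomerase of dividing cells, was found in 0 of 24 Ctsk-rich BiDT cells, which allows a share of cells with a UMI of up to 12.5% by a floor of 3 cells (exact upper limit 14.25%), and in 25 of 86 Ctsk-rich Ctrl cells (29.1%), at median depths of 4940.5 and 13491.5 UMIs. T cells had 432 CPM of Top2a in BiDT and 290 CPM in Ctrl. The part of free RNA in the Top2a counts was not tested.

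**Figure D5:**
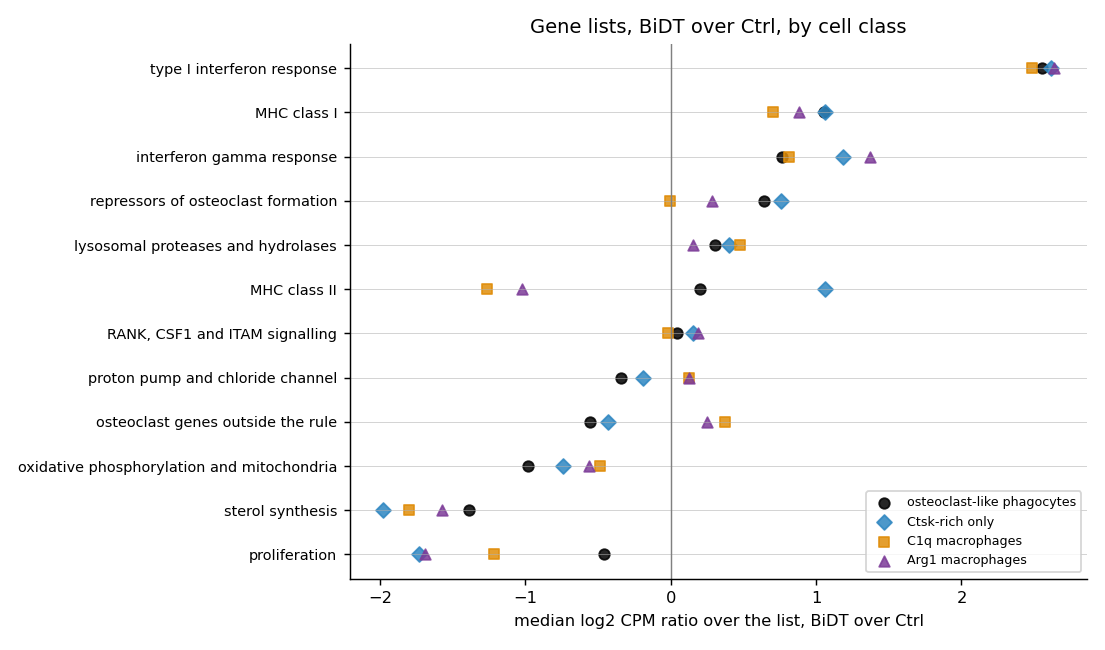
Median log2 CPM ratio, BiDT over Ctrl, over the genes of 12 lists with at least 50 UMIs, in all osteoclast-like phagocytes (black circles), Ctsk-rich cells (blue diamonds), C1q macrophages (orange squares) and Arg1 macrophages (purple triangles). The classes lie together for type I interferon genes (2.49 to 2.64), while MHC class II and the osteoclast genes lie on opposite sides of 0 in members and macrophages. The class II value of all members fell below 0 after thinning, so its direction is not settled.

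By the size of the ratio alone, the highest genes in BiDT members were Ifit2, Slfn4, Ifit3, Ms4a4c, Ifi208, Ccl5, Oasl1, Ifit1, Tmem267 and Usp18, with log2 ratios between 4.16 and 6.01. Of the BiDT UMIs of Ccl5, a chemokine of T and NK cells, 80.3% came from 1 Ctsk-poor cell. Tmem267, a membrane protein without a settled role, had 280 CPM in BiDT and 14.8 CPM in Ctrl members, and 497 and 17.3 CPM in Ctsk-rich cells. Its log2 ratio was 4.24 in members and 1.48 and 1.27 in C1q and Arg1 macrophages. Among the lowest were Chil3, Bdh1, Ear2, Car4, Ch25h, Ccl24, Cyp51, Akap6 and Areg. Chil3, a chitinase-like protein of alternatively activated macrophages, had a log2 ratio of -5.63, but 38.4% of its Ctrl UMIs came from 1 cell, and in Ctsk-rich cells it had 0 CPM in BiDT and 29.1 CPM in Ctrl. Bdh1, the mitochondrial ketone body dehydrogenase, had 1 UMI over the BiDT and 91 over the Ctrl members (3.26 and 51.8 CPM), and 5.78 and 71.4 CPM in Ctsk-rich cells. Akap6, a kinase anchor protein, had 9.77 and 69.4 CPM. C1q macrophages held 9 BiDT and 4 Ctrl UMIs of it, too few for a direction (log2 ratio 1.07, -0.78 to 3.22). Ear2, Car4, Ch25h, Ccl24 and Areg were at or below 23.1 CPM in the Ctsk-rich cells of both libraries, so their differences rest on the Ctsk-poor cells.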

How the data were processed

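The authors deposited unnormalized UMI counts of 2 libraries. The submitters' processing notes name Cell Ranger 7.1.0 and GRCm39, and the extract protocol in the labels names a 3′ kit of 10x Genomics. The deposited barcodes have 3 segments of 9 bases, a form that Cell Ranger does not write, so that the workflow and the counting step are not certain. Library depth was 130313537 UMIs for BiDT and 211047063 UMIs for Ctrl. The members and gene lists were chosen with earlier results of these data known.

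UMIs were summed per class and library with Python 3.11.15, numpy 2.4.6, scipy 1.17.1 and pandas 2.3.3, and given as CPM. Ratios have exact conditional binomial 95% intervals and shares exact (Clopper-Pearson) ones. UMIs of 1 library are not replicates, so intervals and floors cover counting error only. C1q macrophages held at least 10 C1q and at most 1 Arg1 UMIs, Arg1 macrophages at least 5 Arg1 UMIs and T cells at least 2 Cd3 UMIs. Named genes are those of the lists, the 10 highest and 10 lowest ratios of BiDT over Ctrl with at least 50 UMIs, at least 50 CPM in either library and an interval apart from 1-fold, and the 15 highest and 10 lowest over C1q macrophages in both libraries. Mitochondrial, ribosomal, receptor, predicted and sex-linked genes were left out of these. Of 512 listed symbols 3 were not matched and 6 were found under an older name. The interval calculation was tested on simulated Poisson counts without spread between cells, so the test does not cover that spread. Doublets were scored with Scrublet in scanpy 1.11.5, and TMM scaling used edgeR 4.0.16. Members were also counted with other thresholds, after thinning to 2000 UMIs and without Ctsk-poor cells. A few genes that the rule picked are not reported here.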

Additional observations from a re-analysis of the deposited data

Results flagged for a closer look

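The results below had a BiDT over Ctrl ratio in osteoclast-like phagocytes whose direction was opposite to that in both C1q and Arg1 macrophages. With 1 library a group the difference between these classes was not tested. The median log2 ratio of osteoclast genes outside the criteria was -0.56 in members (-0.43 in Ctsk-rich and -0.16 in macrophage-low cells), against 0.37 in C1q and 0.25 in Arg1 macrophages. The macrophage-low value lay near the median over all genes there, -0.12. The defining markers among the osteoclast genes had -0.91 in members (-0.71 in Ctsk-rich and -0.42 in macrophage-low cells), against 0.62 and 0.19. Their summed level had a log2 ratio of -0.19 in members, 0.15 in Ctsk-rich and 0.34 in macrophage-low cells. MHC class II genes had 0.20 in members, 1.06 in Ctsk-rich and -1.40 in Ctsk-poor cells, against -1.27 and -1.03. The member value fell to -0.31 after thinning, on the side of the macrophages. Monocyte genes had -0.28 in members over 7 genes, of which 3 were higher and 3 lower, against 0.57 and 0.35, and they show no common direction. The value was 0.41 over 5 genes in Ctsk-rich and -1.70 over 2 genes in macrophage-low cells. Among genes, Itgb3 had -1.87 in members, -1.46 in Ctsk-rich and -1.14 in macrophage-low cells, against 1.67 and 1.54. Few C1q macrophages held an Itgb3 UMI, 3.92% in BiDT and 1.41% in Ctrl, against 19.1% and 19.2% of T cells. The part of free RNA in the macrophage values was not tested. Slc37a2, a sugar-phosphate transporter of osteoclasts, had -0.87 in members, -0.55 in Ctsk-rich and -0.16 in macrophage-low cells, against 1.10 and 0.55. Ch25h, which makes 25-hydroxycholesterol, had -3.05 in members, from 2 BiDT and 95 Ctrl UMIs, against 2.58 and 1.13. Ctsk-rich cells held 1 BiDT and 2 Ctrl UMIs of it, too few for a direction.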

How the results depend on the processing

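No paired analysis was possible because each group is 1 library. Over 13 other settings the log2 ratio of the share lay between -1.95 and -1.20, the value nearest 0 being that with phagocytes as the denominator. Of the values that answer a comparison, 119 under other settings moved by less than their limit and 10 moved further. Of the values of single lists and genes 1592 moved by less, 257 moved further and 8 reversed. MHC class II genes, BiDT over Ctrl, went to -0.31 after thinning, -0.26 as a mean over cells and -0.24 without the 5 deepest members. Genes higher or lower in BiDT members numbered 138 and 218 after thinning and 1533 and 1902 with a minimum of 20 UMIs. Genes higher than in C1q macrophages numbered 192 after thinning, with 323 lower, 471 with a minimum of 20 UMIs and 555 in macrophage-low cells, where the median of osteoclast genes in BiDT was 2.63. Fewer genes reach the minimum after thinning, by construction. Matrix remodelling genes over C1q macrophages reversed, to -0.041 in Ctrl after thinning, -0.68 in BiDT and -1.25 in Ctrl among Ctsk-rich cells, and -1.13 and -1.39 among macrophage-low cells. In macrophage-low cells the BiDT over Ctrl ratio also reversed for the macrophage list (-0.40 over 9 genes), Ctsk (0.12) and Mmp9 (0.0046). The choice of these cells limits Lyz2, C1qa, C1qb and C1qc, which belong to the macrophage list, so that its value is set in part. The cause of the reversals was not tested. Scaling by trimmed mean of M-values shifts the ratios by -0.06 in members. The Ctsk-rich and macrophage-low sets, the other Ctsk threshold and the single Cd3 UMI were chosen after seeing the data. Depth limits the BiDT side most, with 307161 UMIs over 33 members.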
